A study of Mus musculus with 6 samples.

Results

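The genes described here are 8 members of the peroxisomal fatty acid β-oxidation and import pathway of mouse liver: the importers Abcd2 and Abcd3, the bifunctional enzymes Ehhadh and Hsd17b4, the thiolases Acaa1a and Acaa1b, the carnitine transferase Crot and the reductase Decr2. They were chosen by gene symbol for their place in the pathway, with earlier results of these data known. All 8 were found among the 45777 genes of the deposited table. Whole-liver RNA was sequenced from C57BL/6 mice aged 10 weeks. The Pak4_KO group (3 libraries, Alb-Cre; Pak4 flox/flox) is deleted for p21-activated kinase 4 in hepatocytes, where the albumin promoter drives the Cre recombinase. The WT group (3 libraries, Pak4 flox/flox) carries the same floxed alleles without the Cre transgene, so that an effect of Cre itself and an effect of Pak4 loss cannot be told apart. Pak4 was not measured by cell type, so whether other liver cells keep it is not shown by these data. The sex and feeding state of the mice and whether each library is a separate animal are not stated in the labels. The p-values therefore reflect differences among libraries, which may be technical.

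Peroxisomes of the liver shorten very long-chain, branched and dicarboxylic fatty acids that mitochondria handle poorly. The acyl-CoA enters through an ABCD half-transporter, the first oxidation makes hydrogen peroxide, a bifunctional enzyme hydrates and oxidises the product, and a thiolase releases acetyl-CoA. The shortened chain leaves as a carnitine ester for the mitochondria. In rodents the pathway is a classical target of PPARα, the nuclear receptor that answers fasting and fibrate drugs, with Ehhadh and Acaa1b among its best-known inducible genes.

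The coding sequences of the thiolases are shown first, because reads from these genes can be mistaken for each other. In the GENCODE M21 transcripts (GRCm38) each is 1275 bases long, with 44 differing positions and 96.5% identity, and the longest identical run is 327 bases. The stretch of 90 coding bases with the most differences, coding positions 460 to 549, holds 13 of them, in capitals.
Acaa1a: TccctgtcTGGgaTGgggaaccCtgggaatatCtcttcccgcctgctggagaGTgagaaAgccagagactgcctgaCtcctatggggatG
Acaa1b: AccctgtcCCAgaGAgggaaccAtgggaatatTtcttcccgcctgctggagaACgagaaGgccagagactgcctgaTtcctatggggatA
No further gene resembled any of the 8 at a minimum identity of 85% and a minimum share of 40% of the coding sequence.

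The promoters of Ehhadh and Acaa1b are shown because these are the bifunctional enzyme and the thiolase with the larger fold changes below. Each is the 250 bases before the RefSeq start (GRCm38.p6), which hold no annotated exon, with the CCAAT motif in capitals (read as ATTGG on the other strand).
Ehhadh (chr16:21787835-21788084, minus strand): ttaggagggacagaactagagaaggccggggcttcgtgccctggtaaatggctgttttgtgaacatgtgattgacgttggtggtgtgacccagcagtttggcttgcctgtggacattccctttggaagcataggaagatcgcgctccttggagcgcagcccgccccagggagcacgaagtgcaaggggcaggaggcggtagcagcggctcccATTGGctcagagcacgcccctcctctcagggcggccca
Acaa1b (chr9:119157094-119157343, minus strand): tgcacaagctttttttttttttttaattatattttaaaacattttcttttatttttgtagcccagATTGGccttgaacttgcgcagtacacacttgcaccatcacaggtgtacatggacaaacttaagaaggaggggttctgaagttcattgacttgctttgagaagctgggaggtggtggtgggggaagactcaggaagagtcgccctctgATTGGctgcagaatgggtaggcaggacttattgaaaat
CCAAT occurred 1 time in the Ehhadh window and 2 times in the Acaa1b window, in both genes at -38 to the start. Of the 32851 such windows that were counted, 33.8% hold it on either strand. The counted windows may not cover the whole genome. PPARα binds with its partner RXR to a direct repeat of AGGTCA with 1 base between the copies. Neither that repeat, nor the same repeat of AGGNCA, nor AGGTCA alone was found on either strand in the windows of 6 members. These were Ehhadh, Acaa1a, Acaa1b, Abcd3, Crot and Decr2, and no window of Hsd17b4 or Abcd2 was searched. Of the 32851 windows, 0.0335% hold the repeat of AGGTCA, 0.338% the repeat of AGGNCA and 14.0% AGGTCA alone, each count including the stricter forms. Both repeats are rare in any window of this length, so their absence here cannot tell whether PPARα binds near these genes. Sequence farther from the starts was not searched. G+C made up 60.4% of the Ehhadh window and 41.6% of the Acaa1b window.

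Library totals ran from 42632491 to 48044181 reads in Pak4_KO and from 39603272 to 52521400 reads in WT. Pak4, the targeted gene, stood at 1.37, 2.24 and 1.90 CPM (read counts per library size, scaled between libraries with TMM factors) in Pak4_KO against 5.93, 7.15 and 6.44 CPM in WT (log2 fold change -1.82, edgeR adjusted p = 0.0169). Summed over the 10 hepatocyte markers, among them Alb and Hnf4a, the level was 67968 to 78122 CPM in Pak4_KO and 58204 to 73721 CPM in WT, so the groups overlapped. The 12 tested Kupffer cell and macrophage markers summed to 419.8 to 521 CPM in Pak4_KO against 531 to 677 CPM in WT, the 9 neutrophil markers to 30.4 to 35.0 CPM against 38.8 to 75.8 CPM, and the 6 tested of 10 lymphocyte markers to 1.84 to 2.41 CPM against 2.64 to 3.66 CPM. These 3 sums were lower in every Pak4_KO library than in every WT library. The 8 cholangiocyte markers summed to 56.6 to 85.8 CPM in Pak4_KO against 42.0 to 60.9 CPM in WT, with 7 of 8 positive and a median log2 fold change of 0.67. The 10 endothelial markers summed to 342 to 481 CPM in Pak4_KO against 338 to 409.9 CPM in WT, all 10 positive with a median of 0.15, and both of these sums overlapped between the groups. The part of any of these cell types in the results below was not tested. In whole liver, fewer cells of a type and less RNA per cell cannot be told apart.

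All 8 genes had a higher fitted level in Pak4_KO than in WT, by 1.14-fold (Hsd17b4) to 3.30-fold (Abcd2), where 50.7% of all tested genes had a positive log2 fold change, but none passed the test over all genes. The count was 0 of 8 at an edgeR adjusted p under 0.05, where 0.469% of the 16197 tested genes were called in either direction, 0.265% higher and 0.204% lower in Pak4_KO. By other tools, the DESeq2 Wald test called 3 of 8 (Ehhadh, Acaa1b and Abcd2), against 2.06% of all genes it tested, and limma-voom called 0, against 0.42%. At an unadjusted edgeR p under 0.05, 5 of the 8 genes were higher in Pak4_KO (Ehhadh, Abcd2, Acaa1b, Abcd3 and Acaa1a), against 4.51% of all tested genes. In 6 of the 8 genes every Pak4_KO library lay above every WT library, against 7.35% of all tested genes. The exceptions were Hsd17b4 and Decr2, and with TPM Decr2 also separated, against 11% of all tested genes. The median log2 fold change was 0.41 over the 8 genes and 0.0045 over all tested genes.

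**Figure D1:**
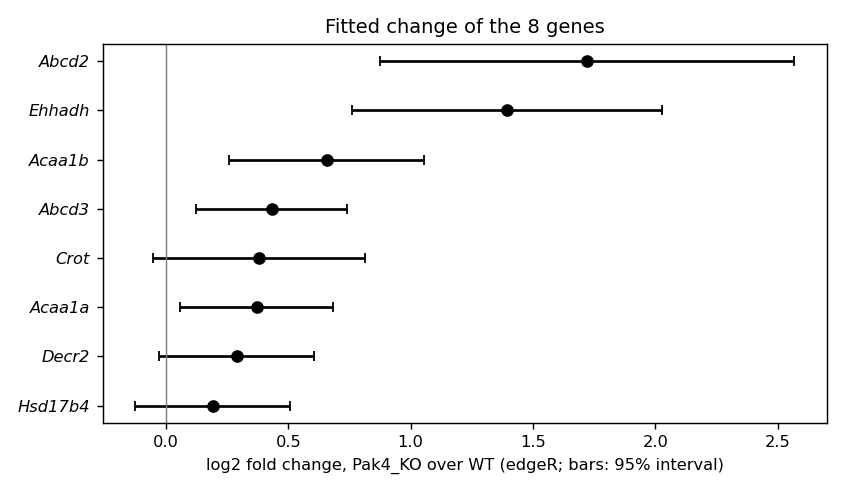
Fitted log2 fold change of each of the 8 genes, Pak4_KO over WT, from edgeR; points are estimates and bars 95% intervals, and the vertical line marks no change. All 8 estimates are positive, Abcd2 (1.72) and Ehhadh (1.39) lie farthest out, and the intervals of Crot, Decr2 and Hsd17b4 include 0.

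Abcd3 encodes PMP70, the importer for branched and dicarboxylic acyl-CoAs and the most abundant ABC protein of the liver peroxisome membrane. Abcd3 (NCBI gene 19299, chromosome 3, 121758904 to 121815302, GRCm38.p6) had 659, 627 and 745 CPM in Pak4_KO against 468, 529 and 509 CPM in WT. The groups did not overlap, and the WT libraries lay closer together than the Pak4_KO libraries. The log2 fold change was 0.43 (SE 0.13, 95% interval 0.12 to 0.74), or 1.35-fold, with an edgeR adjusted p of 0.374.

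Abcd2, the importer for very long-chain and polyunsaturated acyl-CoAs, is a minor transcript in liver and is abundant in adipose tissue. Abcd2 (NCBI gene 26874, chromosome 15, 91145871 to 91192007) had 851, 379 and 800 reads in Pak4_KO against 117, 288 and 217 reads in WT. Scaled, these are 20.1, 8.02 and 16.0 CPM in Pak4_KO and 2.95, 6.06 and 4.31 CPM in WT. Pak4_KO replicate 2 stood well under the other Pak4_KO libraries and closest to WT, though still above all of them. The log2 fold change of 1.72 (SE 0.37, 95% interval 0.88 to 2.57), or 3.30-fold, had an edgeR adjusted p of 0.138, and only 0.920% of tested genes had a larger one. Of the 7 adipocyte markers 3 were tested (Cidec, Fabp4 and Cfd), and their summed level was 56.2, 118 and 244 CPM in Pak4_KO against 57.8, 53.6 and 83.7 CPM in WT. Cidec had 34.3, 84.3 and 211 CPM in Pak4_KO against 38.0, 43.1 and 42.3 CPM in WT. Fabp4 had 21.8, 30.4 and 29.9 CPM against 19.8, 10.4 and 41.4 CPM. Cfd had 10, 146 and 131 reads in Pak4_KO against 0, 5 and 0 in WT. All 3 had a positive fitted change, with a median of 1.42 on the log2 scale. Of the other markers, Adipoq and Lep had 0 reads in all 6 libraries, Plin1 had 7 reads and Retn 3, all in WT replicate 3. The part of adipocytes in the level of Abcd2 was not tested. The log2 ratio of Abcd2 to Abcd3 reads was -5.03, -6.29 and -5.54 in Pak4_KO against -7.30, -6.44 and -6.88 in WT. The difference, 1.26 in the mean log2 ratio, gave a two-sided exact permutation p of 0.1, the smallest that 3 libraries against 3 allow (0.15 adjusted over the 3 ratios tested).

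Ehhadh is the L-bifunctional enzyme, which handles straight-chain and dicarboxylic intermediates. Ehhadh (NCBI gene 74147, chromosome 16, 21761285 to 21787834) had 424, 659.7 and 971 CPM in Pak4_KO against 227, 279 and 277 CPM in WT. The WT libraries lay close together, while the Pak4_KO libraries were spread widely, with replicate 1 lowest and replicate 3 highest. The mean level was 685 ± 274 CPM in Pak4_KO and 261 ± 29.5 CPM in WT (SD, n = 3 each). The log2 fold change was 1.39 (SE 0.28, 95% interval 0.76 to 2.03), or 2.63-fold, with an edgeR adjusted p of 0.109. Without Pak4_KO replicate 1, the edgeR adjusted p of Ehhadh was 0.0214, and without 1 library the log2 fold change ranged from 1.05 to 1.64.

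Hsd17b4 is the D-bifunctional enzyme, which also takes the branched-chain and bile acid intermediates. Hsd17b4 (NCBI gene 15488, chromosome 18, 50128201 to 50196270) had 402, 386 and 429 CPM in Pak4_KO against 323, 338 and 406 CPM in WT. WT replicate 3 lay within the Pak4_KO range, so the groups overlapped. Its fitted difference, 0.19 on the log2 scale with a 95% interval from -0.13 to 0.51, was the smallest of the 8 (SE 0.14, edgeR adjusted p = 0.809). Within each library the log2 ratio of Ehhadh to Hsd17b4 reads was 0.077, 0.77 and 1.18 in Pak4_KO against -0.51, -0.28 and -0.55 in WT. Ehhadh reads thus outnumbered Hsd17b4 reads in each Pak4_KO library and in none of the WT libraries. The mean log2 ratios differed by 1.12, with a two-sided exact permutation p of 0.1, the smallest possible here (0.15 adjusted over 3 ratios).

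**Figure D2:**
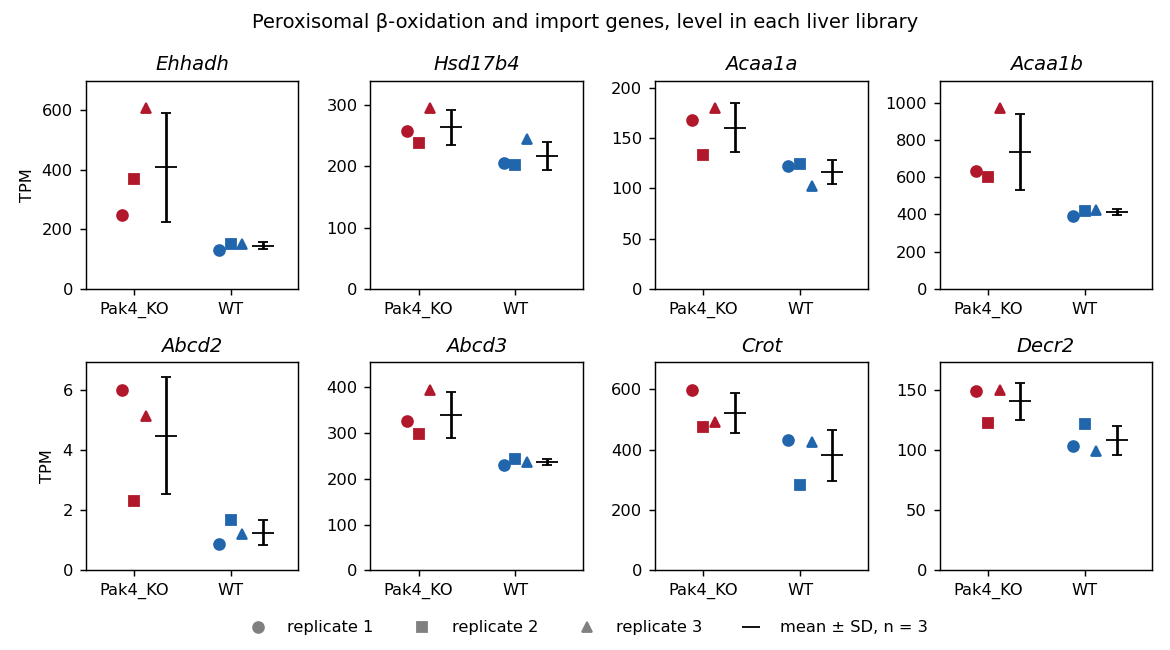
Deposited TPM of each gene in each liver library, Pak4_KO left and WT right, with marker shapes for the replicates and the mean ± SD beside them; each axis starts at 0 and has its own scale. Ehhadh spreads from 248 to 607 TPM in Pak4_KO and from 132 to 152 TPM in WT, while the groups of Hsd17b4 overlap.

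Acaa1b and Acaa1a are the thiolases of the last step, both on chromosome 9. Acaa1b (NCBI gene 235674, 119148043 to 119157093) had 560.1, 553 and 797 CPM in Pak4_KO against 381, 429 and 402 CPM in WT. Pak4_KO replicate 3 stood apart from the other Pak4_KO libraries, and all 3 lay above WT. Its log2 fold change was 0.66 (SE 0.17, 95% interval 0.26 to 1.05), or 1.58-fold, with an edgeR adjusted p of 0.257. Acaa1a (NCBI gene 113868, 119341028 to 119350296) had 170, 141 and 171 CPM in Pak4_KO against 126, 135 and 112 CPM in WT. These groups were also apart, by the small gap between Pak4_KO replicate 2 and WT replicate 2. The log2 fold change of Acaa1a was 0.37 (SE 0.14, 95% interval 0.059 to 0.68; edgeR adjusted p = 0.50). The split between the genes is uncertain, given the sequences above. With their reads summed, the pair had 729.9, 694 and 968 CPM in Pak4_KO against 507, 564 and 514 CPM in WT. The summed reads were 1.51-fold higher in Pak4_KO, 0.59 on the log2 scale with SE 0.16, at an edgeR adjusted p of 0.278. The log2 ratio of Acaa1b to Acaa1a reads was 1.72, 1.97 and 2.22 in Pak4_KO against 1.60, 1.67 and 1.85 in WT, which overlap (difference 0.27, two-sided exact permutation p = 0.2, also 0.2 adjusted over 3 ratios). Exons of Acaa1a share 290 of 4414 bases with Myd88 on the opposite strand, and exons of Acaa1b share 224 of 1962 bases with Dlec1. Myd88 had 11121 reads over the 6 libraries and Dlec1 69, against 39435 for Acaa1a and 145379 for Acaa1b, and the strand setting of the counting is not given in the sources used here.

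Crot, carnitine O-octanoyltransferase, joins the shortened medium chains to carnitine so that they can leave the peroxisome. Crot (NCBI gene 74114, chromosome 5, 8966033 to 8997146) had 981, 815 and 754 CPM in Pak4_KO against 713, 501 and 746 CPM in WT. Here Pak4_KO replicate 1 was the highest library, unlike Ehhadh, and Pak4_KO replicate 3 lay just above WT replicate 3. The log2 fold change was 0.38 (SE 0.19, 95% interval -0.054 to 0.81), or 1.30-fold, with an edgeR adjusted p of 0.669. Decr2 is the peroxisomal dienoyl-CoA reductase, which prepares polyunsaturated chains for oxidation. Decr2 (NCBI gene 26378, chromosome 17, 26081208 to 26090322) had 177, 152 and 167 CPM in Pak4_KO against 124, 156 and 126 CPM in WT. WT replicate 2 lay above Pak4_KO replicate 2, and the log2 fold change was 0.29 (SE 0.14, 95% interval -0.029 to 0.61; edgeR adjusted p = 0.655).

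Between genes, levels can be compared as TPM, which is scaled by transcript length. Acaa1b was the most abundant of the 8 genes in both groups, at 735 ± 204 TPM in Pak4_KO and 411 ± 16.5 TPM in WT (SD, n = 3 each). Abcd2 was the least abundant in both, at 4.49 ± 1.94 TPM in Pak4_KO and 1.26 ± 0.411 TPM in WT. In Pak4_KO the order was Acaa1b, Crot, Ehhadh, Abcd3, Hsd17b4, Acaa1a, Decr2 and Abcd2, and in WT it was Acaa1b, Crot, Abcd3, Hsd17b4, Ehhadh, Acaa1a, Decr2 and Abcd2. Ehhadh thus held rank 3 in Pak4_KO and rank 5 in WT. In Pak4_KO the libraries of Crot and Ehhadh overlapped, as did those of Ehhadh and Abcd3 and of Acaa1a and Decr2. In WT the overlapping neighbours were Acaa1b and Crot, Abcd3 and Hsd17b4, and Acaa1a and Decr2. Summed, the 8 genes made up 0.239%, 0.224% and 0.309% of transcripts in the Pak4_KO libraries against 0.162%, 0.155% and 0.169% in the WT libraries.

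The 8 genes did not follow the same order of libraries. Relative to its mean over the 6 libraries, Ehhadh stood at 0.049, 0.69 and 1.24 (log2) in Pak4_KO, while Abcd2 stood at 1.39, 0.068 and 1.06. Pak4_KO replicate 3 was the highest library for Ehhadh, Hsd17b4, Acaa1a, Acaa1b and Abcd3, and Pak4_KO replicate 1 for Abcd2 and Crot. For Decr2 it was Pak4_KO replicate 1 by CPM and Pak4_KO replicate 3 by TPM. The median over the 8 genes was 0.21, 0.088 and 0.32 in Pak4_KO and -0.29, -0.20 and -0.28 in WT.

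**Figure D3:**
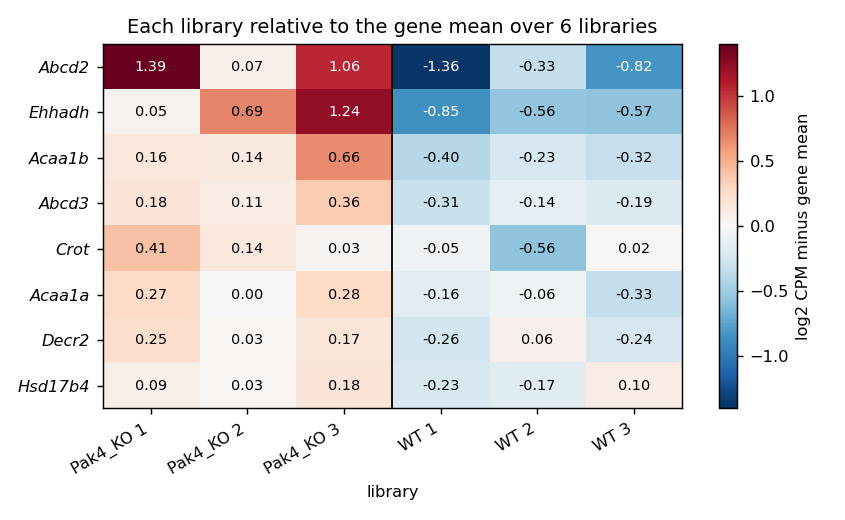
Log2 CPM of each gene (rows, ordered by fold change) in each library (columns, Pak4_KO left of the line and WT right), minus the gene's mean over the 6 libraries. All Pak4_KO cells are above 0, from 0.0036 (Acaa1a, replicate 2) to 1.39 (Abcd2, replicate 1), and 3 WT cells are above 0: Decr2 in replicate 2, and Hsd17b4 and Crot in replicate 3.

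Of the 27 further enzymes and carriers of peroxisomal β-oxidation that were listed, 26 were tested and 0 were called by edgeR, against 2 by the DESeq2 Wald test (among them Acot3), which called 2.06% of all genes against 0.469% by edgeR. Their fitted changes were positive for 14 and negative for 12, with a median of 0.075 on the log2 scale. The smallest p in this list belonged to the acyl-CoA thioesterases Acot3 and Acot6. Acot3 had 7.79, 16.5 and 20.8 CPM in Pak4_KO against 5.30, 3.43 and 4.04 CPM in WT (edgeR adjusted p = 0.0951). Acot6 had 1.38 ± 0.190 CPM in Pak4_KO against 0.580 ± 0.107 CPM in WT (SD, n = 3 each, edgeR adjusted p = 0.233). Both belong to a cluster of similar thioesterase genes, among which reads could be split. Without Pak4_KO replicate 1, Acot3 passed (edgeR adjusted p = 0.0139) and the list's median was -0.049. That median was 0.22 without Pak4_KO replicate 2, 0.15 without Pak4_KO replicate 3, 0.049 without WT replicate 1, 0.20 without WT replicate 2 and 0.047 without WT replicate 3.

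Of 21 tested genes for building and dividing peroxisomes, 16 had positive and 5 negative fitted changes, with a median of 0.14 and none called by edgeR or by the DESeq2 Wald test. Their lowest p values were those of the membrane proteins Pxmp4 (106 ± 7.69 CPM in Pak4_KO, 80.4 ± 6.93 CPM in WT) and Pxmp2 (52.5 ± 8.38 CPM in Pak4_KO, 74.3 ± 12.3 CPM in WT), with log2 fold changes of 0.40 and -0.50 (edgeR adjusted p = 0.374 and 0.440). Of 14 tested genes for peroxisomal oxidases, peroxide removal and ether lipid synthesis, 7 were positive and 7 negative, with a median of -0.060. With log2(TPM + 1) the list's median was 0.0047, where that of all tested genes was 0.056. With log2(TPM + 0.1) these medians were 0.025 and 0.082. Without Pak4_KO replicate 1 the list's median was -0.25, without WT replicate 1 it was -0.20, and without Pak4_KO replicate 3 it was -0.019. None was called by edgeR or by the DESeq2 Wald test. In that list Ephx2, the soluble epoxide hydrolase, had a log2 fold change of 0.40 (edgeR adjusted p = 0.467) and Pipox, an oxidase of sarcosine and pipecolic acid, one of -0.30 (edgeR adjusted p = 0.620).

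For comparison, 16 of the 18 mitochondrial β-oxidation genes had positive changes, with a median of 0.22. None was called by edgeR, against 1, Decr1, by the DESeq2 Wald test (adjusted p = 0.00151). Decr1, the mitochondrial counterpart of Decr2, had 191 ± 10.8 CPM in Pak4_KO against 128 ± 6.82 CPM in WT (log2 fold change 0.58, edgeR adjusted p = 0.119), and Eci1, an enoyl-CoA isomerase, 81.4 ± 5.19 CPM against 61.4 ± 5.23 CPM (0.41, edgeR adjusted p = 0.344). Of 18 PPARα targets outside β-oxidation 17 were positive, with a median of 0.90. By edgeR 2 genes of that list rose, where 0.265% of all tested genes were called higher, the pantetheinase Vnn1 (log2 fold change 1.77, edgeR adjusted p = 0.0244) and the thioesterase Acot1 (2.51, edgeR adjusted p = 0.0262). The DESeq2 Wald test called 7 of the 18, with 2.06% of all genes called. Vnn1 lost its call without Pak4_KO replicate 1 (edgeR adjusted p = 0.0607), Pak4_KO replicate 3 (0.0816), WT replicate 1 (0.0818) or WT replicate 3 (0.0620). Acot1 lost it without Pak4_KO replicate 2 (0.122), Pak4_KO replicate 3 (0.0844), WT replicate 1 (0.107) or WT replicate 2 (0.0647). Differences between these lists were not tested.

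**Figure D4:**
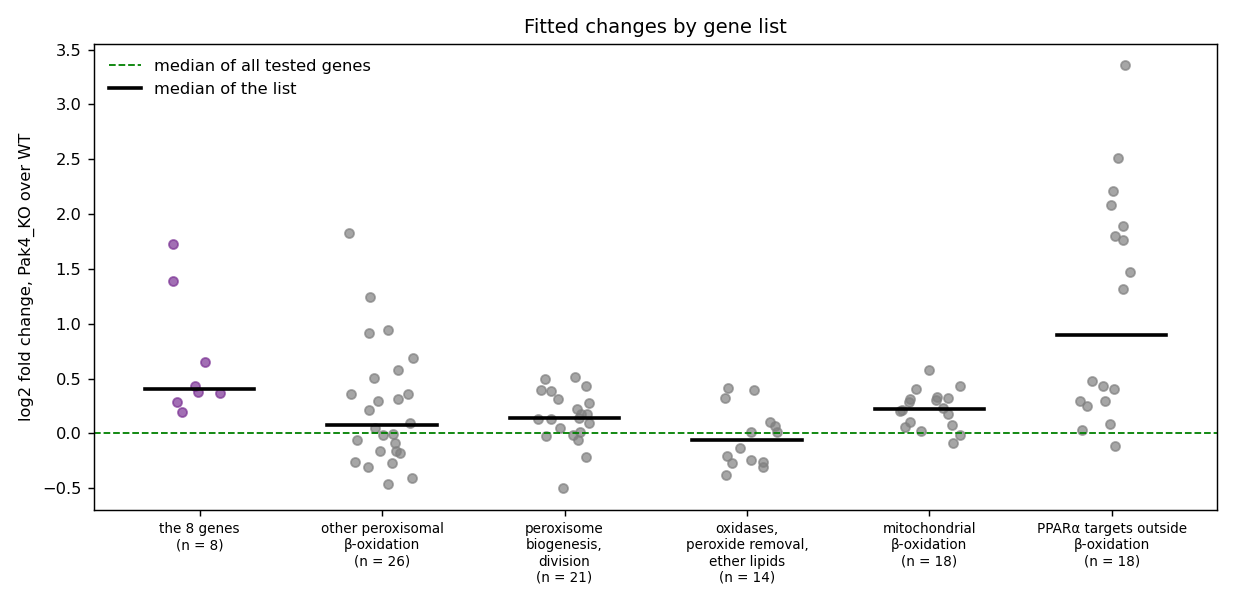
Fitted log2 fold change (Pak4_KO over WT) of each tested gene in the 8 genes described here and in 5 lists of related genes; black bars are list medians and the dashed line is the median of all tested genes (0.0045). The 8 genes have a median of 0.41, the other peroxisomal β-oxidation genes 0.075 and the PPARα targets outside β-oxidation 0.90.

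The genes whose pattern over the 6 libraries was most like that of Ehhadh were Cd36, Retsat and Plin5. Likeness was the root mean square difference of log2 CPM after centring each gene on its mean, among 8784 named genes with at least 5 CPM on average. Cd36, a fatty acid translocase, had 64.0, 61.1 and 129 CPM in Pak4_KO against 24.1, 31.4 and 36.1 CPM in WT (difference from Ehhadh 0.23). Retsat, a retinol saturase, had 296, 381 and 439 CPM in Pak4_KO against 152, 143 and 207 CPM in WT (0.26), and Plin5, a lipid droplet coat protein, 97.2, 162 and 219 CPM against 79.7, 91.1 and 87.7 CPM (0.26). Among the other 7 pathway genes, Acaa1b came nearest to Ehhadh at rank 38 (0.41), and Crot was the farthest at rank 1804 (0.69).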

How the data were processed

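Per the labels' protocols, total RNA from whole liver went into stranded mRNA libraries (Illumina TruSeq). Alignment tools HISAT2 2.1.0 and Bowtie2 2.3.4.1, the assembler StringTie 2.1.3b and build mm10 are named in the submitters' processing notes. Which annotation was used, on which strand reads were counted and how multiply matching reads were treated is not given in the sources used here. Deposited by the authors were values per gene that the file headers name read counts, with 1 column for each library. They were taken to be whole-number counts that had not been normalized. TPM and FPKM deposited by the authors stand in the same table: TPM was used for levels between genes and in 2 alternatives, and FPKM in no step.

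Counts were fitted with edgeR 4.0.16 (R 4.3.3): filterByExpr, which left 16197 genes and all 8 pathway genes, TMM factors and the quasi-likelihood F-test, two-sided, adjusted by Benjamini-Hochberg over all tested genes and called at an adjusted p under 0.05. The SE is the absolute log2 fold change over the square root of F, and intervals cover 95%. CPM are TMM-scaled, and log2 CPM use a prior count of 2. Ratios within a library used log2 of reads plus 0.5 and an exact permutation test over libraries. Symbols, coordinates and promoters came from RefSeq GRCm38.p6, and transcripts from GENCODE M21, searched with blastn 2.17.0. The fit was tested on simulated data.

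Named genes are the 8 members, Pak4, up to 4 called genes of each list (the 2 of smallest p where none was called) and the 3 most like Ehhadh; other genes named were chosen after their values were seen, and 1 gene that the rule names is not reported here. Members and lists were chosen with earlier results of these data known. Alternatives were other scalings (DESeq2 size factors, upper quartile, library size), other filters (none, or at least 10 reads in every library), DESeq2 1.42.0, limma-voom and limma-trend on log2(TPM + 1) or log2(TPM + 0.1) (limma 3.58.1), robust edgeR, the replicate block, summed Acaa1 reads and each library left out, with the tested genes kept. In all 6 libraries more genes had 2 reads than 1, and whether both mates of a pair were counted is not known.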

Additional observations from a re-analysis of the deposited data

How the results depend on the processing

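All 8 genes kept a positive log2 fold change in every alternative run. The DESeq2 Wald test called 3 of them, Ehhadh (adjusted p = 7.90e-05), Abcd2 (0.000307) and Acaa1b (0.0308), and 334 genes in all, against 0 and 76 by edgeR, and the cause was not tested. With at least 10 reads in every library, which left fewer genes to test, 44 genes were called. The cause of that lower count was not tested either. With 1 library left out, 38 to 87 genes and 0 to 1 of the 8 were called, the 1 being Ehhadh without Pak4_KO replicate 1. Across all alternatives the log2 fold change ranged from 1.05 to 1.64 for Ehhadh, from 1.23 to 2.02 for Abcd2 and from 0.12 to 0.30 for Hsd17b4. The lowest value for Abcd2 came with log2(TPM + 1), where its mean in WT was only 1.26 TPM, and log2(TPM + 0.1) gave 1.69. The edgeR adjusted p of Pak4 was 0.0887 without Pak4_KO replicate 3, 0.0509 without WT replicate 1 and 0.0616 without WT replicate 2, each with the log2 fold change still negative.

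Same-numbered libraries did not clearly deviate together (correlations 0.067, -0.20 and 0.15), and differently numbered ones ranged from -0.24 to 0.19. With 3 libraries in each group, these values cannot decide whether the numbers pair the libraries. With the replicate block, 73 genes, 0 of the 8 and 5 of the 18 PPARα targets outside β-oxidation were called. The 3 ratios kept their sign under TPM, a larger pseudocount and each library left out, in designs too small to pass 0.05. Abcd2, with 117 to 851 reads a library, has the least depth of the 8 genes.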
